A study of Homo sapiens with 12 samples.

Results

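The ETV factors and the MAPK feedback genes are described here in RCC4 cells after knockdown of MESH1. The set has 10 members of the 23710 genes counted: the PEA3 group of ETS transcription factors (ETV1, ETV4 and ETV5), the ERK phosphatases DUSP4 and DUSP6, the inhibitors SPRY2, SPRY4, SPRED1 and SPRED2, and the immediate early gene EGR1. All 10 had a row in the count files. ETV1 was chosen because its counts rose with each siRNA, so its change is given as a description with no test. The other 9 were chosen by their role as readouts of ERK activity, with earlier results of these data known. RCC4 is a human clear cell renal carcinoma line without functional VHL, and MESH1 (gene symbol HDDC3) is a cytosolic NADPH phosphatase. Cells were collected 72 h after transfection with 40 pmol of siRNA. Experiment 1 held 3 libraries of siMESH1#1 (against the coding sequence) and 3 of non-targeting siRNA (siNT, AllStars Negative Control). Experiment 2 held 3 libraries of siMESH1#2 (against the 3′UTR) and 3 siNT libraries of its own, so siRNA and experiment cannot be told apart. All groups are the same line, transiently transfected, and nothing in the labels says whether the 2 experiments shared a passage of cells.

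Growth factor receptors signal through RAS, RAF and MEK to the kinase ERK, which stabilizes and induces transcription factors and switches on its own brakes. DUSP4 and DUSP6 remove phosphate from ERK, SPRY and SPRED proteins act upstream at the level of RAS and RAF, and EGR1 is induced within minutes through serum response factor. ETV1, ETV4 and ETV5 are repressed by Capicua (CIC), which ERK inactivates, and the proteins are degraded through the ubiquitin ligase COP1. Transcripts of these genes are often read together as a measure of ERK output.

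Libraries had between 24787804 and 49134129 reads in genes, and values are CPM, read counts relative to the depth of the library, scaled by TMM within an experiment unless another scale is named. HDDC3, the targeted gene, had 7.48 ± 0.913 CPM in siNT and 0.158 ± 0.158 in siMESH1#1, with 5, 0 and 11 reads there (fitted log2 -5.56). In experiment 1 it passed the filter on low counts only through siNT, so this change is a description with no test. In experiment 2 the levels were 13.2 ± 0.630 CPM in siNT and 1.38 ± 0.291 in siMESH1#2 (all mean ± SD, n = 3 per group). The log2 change in experiment 2 was -3.25 (adjusted p = 2.51e-12, edgeR quasi-likelihood test). The siMESH1#1 libraries stood apart. Of 10 classes of genes by transcript GC content, the poorest in GC had a median log2 change of 1.11 with siMESH1#1 and the richest -3.67, where siMESH1#2 gave 0.14 and -0.09. The members are therefore also given after a correction for GC content in each library, and whether this trend arose in the cells or in the libraries was not tested. The correction moved the median log2 change of all genes from -0.047 to 0.17 with siMESH1#1 and from 0.0053 to 0.073 with siMESH1#2. Of 10 renal carcinoma markers, VIM had at least 3403 CPM and PAX8 at least 31.2 CPM in every library, while KRT18 and NDUFA4L2 went down to 0.286 and 0.0780 CPM in siMESH1#1. Of 14 markers of other cell types, CD3E, PECAM1 and HBB had no read in any library. The summed level of these 14 lay between 5.12 and 11.9 CPM with siMESH1#1, 67.9 and 83.4 with its siNT, 115 and 120 with the siNT of experiment 2, and 162 and 175 with siMESH1#2, most of it from CD68 and COL1A1, and its part in the results was not tested.

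Target sites of siMESH1#2 are shown because the same 7 letters recur in SPRED1 and SPRED2, the members called lower with this siRNA. The seed of a guide, its bases 2 to 8, can pair with transcripts other than the target. By the target sequence that the labels of experiment 2 give, the siMESH1#2 seed pairs on the transcript with GCTAACT, in capitals in 21 bases of the 3′UTRs (GRCh38, GENCODE 29), 5′ to 3′ on the strand of the gene. HDDC3 lies at chr15:90931109-90931129 (minus strand), SPRED1 at chr15:38351700-38351720 (plus strand) and SPRED2 at chr2:65313202-65313222 (minus strand).
HDDC3: ctgaaggtctcctGCTAACTa
SPRED1: tttccaggaattaGCTAACTt
SPRED2: aatctgtaaccaaGCTAACTg
The HDDC3 window equals the target of the siRNA at 21 of 21 bases, and the SPRED1 and SPRED2 windows at 9 of 21 each. Of 18548 genes with an annotated 3′UTR, 5.52% held this match, and none of the other 8 members did. The seed match of siMESH1#1, ACATTGT, was found 2 times in the 3′UTR of SPRED1 and in no other member, against 14.3% of all genes.

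Promoter windows around annotated starts (250 bases before to 50 after; RefSeq, GRCh38.p14) were found for 7 members, with 15 windows in all, and not for ETV4, ETV5 and DUSP4. They were searched on both strands for the CArG box bound by serum response factor, the CIC octamers TGAATGAA and TGAATGGA, and the ETS core CCGGAA. The CArG box was found in EGR1 alone among these 7 members, 2 times, and in 1.293% of 35116 windows. TGAATGGA was found in 1 window of ETV1 and in 1.031% of all windows. The sites are shown with the motif in capitals, on the strand of the gene, at chr5:138465364-138465393 and chr5:138465386-138465415 (plus strand) for EGR1 and chr7:13991532-13991561 (minus strand) for ETV1.
EGR1, first site: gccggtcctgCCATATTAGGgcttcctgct
EGR1, second site: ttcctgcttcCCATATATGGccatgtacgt
ETV1: ccggaattttgTGAATGGAgacgaaaggtg
TGAATGAA was in none of the member windows and in 1.655% of all. CCGGAA was in windows of ETV1 and SPRY2 and in 17.25% of all; the ETV1 run above opens with these letters. A match of letters is not evidence of binding.

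ETV1, an ETS factor that drives growth programs in several tumours, was about 4 times higher with each siRNA. In experiment 1 it had 11.9, 10.8 and 12.6 CPM with siNT and 53.7, 63.5 and 47.1 CPM with siMESH1#1. In experiment 2 it had 5.90, 7.31 and 8.55 CPM with siNT and 27.7, 29.1 and 26.0 CPM with siMESH1#2. Every knockdown library lay above every siNT library of its experiment, and these are the values that chose the gene. Groups without overlap were common: 82.7% of all genes tested were so with siMESH1#1 (40.2% higher and 42.5% lower) and 59.5% with siMESH1#2 (29.6% and 29.9%). The log2 fold change was 2.22 (SE 0.16) with siMESH1#1 and 1.93 (SE 0.10) with siMESH1#2. ETV1 is in the lowest GC class, with 38.1% GC, where the median gene changed by 1.11 with siMESH1#1 and by 0.14 with siMESH1#2. After GC correction the log2 change was 1.39 with siMESH1#1 and 1.89 with siMESH1#2. Within lanes 4 and 6, the lanes of experiment 1 that held 1 library of each group, the log2 ratio of CPM + 0.5 was 1.94 and 2.05.

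Of the other members of the PEA3 group, ETV4 did not rise with either siRNA and ETV5 rose with siMESH1#2 alone. ETV4 had 244, 117 and 203 reads with siNT in experiment 1 and 0, 2 and 17 reads with siMESH1#1, which is 4.58, 2.59 and 4.36 against 0, 0.0520 and 0.489 CPM. The count of 0 allows up to 0.0949 CPM in that library (3 reads, counting error only). Every siMESH1#1 library lay below every siNT library. ETV4 passed the filter on low counts only through the siNT libraries, where it is high, so its change is given as a description with no test. The fitted log2 fold change was -4.39, which depends on the few reads of replicate 3 and, without it, on the prior count. ETV4 has 60.8% GC, in a class whose median gene changed by -2.57, and the log2 value after GC correction was -1.54. In experiment 2 ETV4 had 14, 7 and 10 reads with siNT and 6, 5 and 6 with siMESH1#2, too few for the filter. In CPM every siMESH1#2 library lay below every siNT library there. Without the filter its log2 change was -0.91 (SE 0.46, adjusted p = 0.121), and a difference was not detectable at this depth.

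ETV5 did not pass the test with siMESH1#1, at 39.9, 31.1 and 37.4 CPM with siNT and 35.1, 32.4 and 34.4 CPM with the siRNA. The groups overlapped, and the log2 change was -0.09 (SE 0.13, adjusted p = 0.555), or 0.054 after GC correction. With siMESH1#2 it rose from 6.81, 6.71 and 6.56 CPM to 9.26, 8.82 and 7.92 CPM (log2 0.37, SE 0.10, adjusted p = 0.00359). Every siMESH1#2 library lay above every siNT library. Among these related factors, ETV1 was higher with both siRNAs, ETV5 rose with siMESH1#2, and ETV4 had fewer reads with siMESH1#1.

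**Figure D1:**
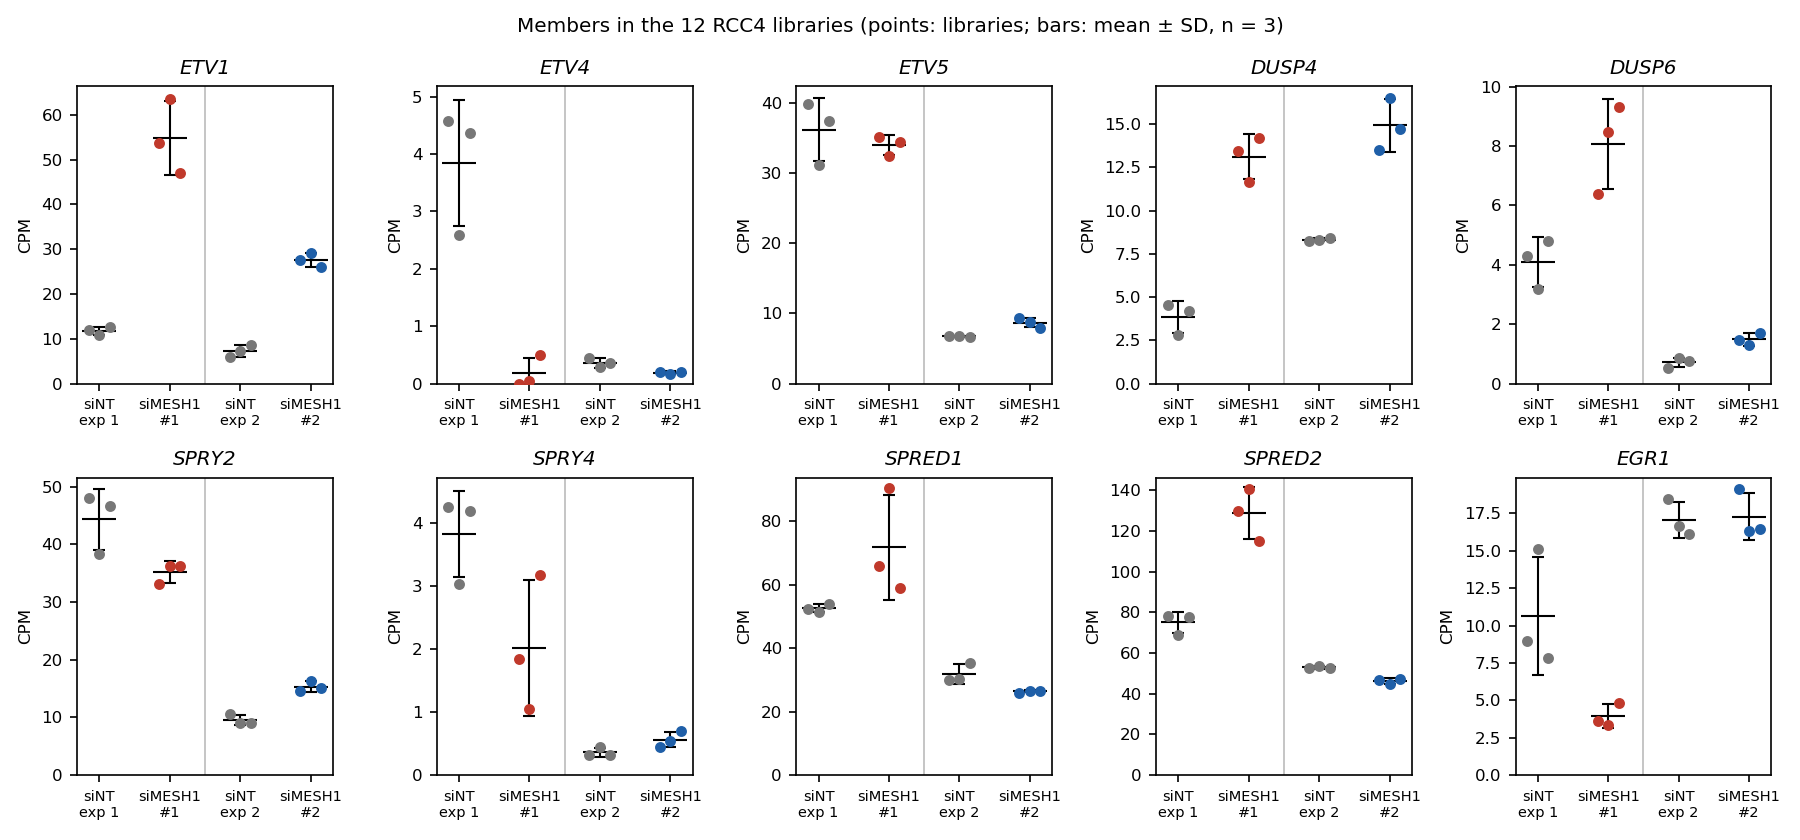
CPM (linear axes from 0, TMM scale of each experiment) of the 10 members in the 12 RCC4 libraries, with a panel per gene. Points are libraries and bars are mean ± SD (n = 3): ETV1 and DUSP4 were higher with siMESH1 in both experiments, and ETV5, SPRY2 and SPRY4 were lower in the siNT of experiment 2 than in that of experiment 1.

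DUSP4 and DUSP6 rose with both siRNAs. DUSP4, a nuclear ERK phosphatase, had 4.53, 2.81 and 4.21 CPM with siNT and 13.4, 11.7 and 14.2 CPM with siMESH1#1 (log2 1.77, SE 0.24, adjusted p = 0.00136). With siMESH1#2 it went from 8.26, 8.28 and 8.41 to 13.5, 16.5 and 14.7 CPM (log2 0.84, SE 0.09, adjusted p = 6.41e-07). All knockdown libraries were above their siNT libraries. Its class of GC content had a median of -0.76 with siMESH1#1, and after correction DUSP4 stood higher still, at 2.42 (adjusted p = 0.000223). The alternative settings gave log2 values of 1.51 to 2.43 for siMESH1#1 (adjusted p of at most 0.00932) and 0.76 to 0.94 for siMESH1#2 (at most 0.00517).

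DUSP6, the cytoplasmic ERK phosphatase, rose from 4.28, 3.19 and 4.81 to 6.39, 8.48 and 9.32 CPM with siMESH1#1 (log2 0.98, SE 0.25, adjusted p = 0.0131). In experiment 2 the level was lower, with 17, 21 and 21 reads in siNT and 42, 38 and 52 with siMESH1#2, or 0.536, 0.844 and 0.745 against 1.46, 1.28 and 1.72 CPM (log2 1.09, SE 0.23, adjusted p = 8.20e-04). Every knockdown library was above every siNT library in each experiment. The call with siMESH1#1 was lost with a term for lane (log2 0.77, adjusted p = 0.0908) and without siNT replicate 2 of experiment 1 (log2 0.82, adjusted p = 0.0504). It held after GC correction (log2 0.87, adjusted p = 0.0142). Within lanes 4 and 6 the log2 ratio was 1.04 and 0.37.

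SPRY2 and SPRY4, Sprouty proteins that restrain receptor signalling to RAS, were not called with siMESH1#1, and SPRY2 rose with siMESH1#2. SPRY2 had 48.0, 38.3 and 46.6 CPM with siNT and 33.0, 36.2 and 36.3 CPM with siMESH1#1 (log2 -0.33, SE 0.13, adjusted p = 0.0562). The groups did not overlap, and the change was called lower by DESeq2 (log2 -0.38, adjusted p = 0.0492) and with library size alone (log2 -0.60, adjusted p = 0.00677), and without siNT replicate 2 (log2 -0.43, adjusted p = 0.0383). So it was at 10 counts or more in every library (-0.52, adjusted p = 0.0120) and in 1 model of 4 groups (-0.49, adjusted p = 0.00168). After GC correction the change was -0.22 (adjusted p = 0.171). With siMESH1#2, SPRY2 went from 10.5, 9.003 and 9.05 to 14.6, 16.4 and 15.1 CPM (log2 0.68, SE 0.09, adjusted p = 4.96e-06), again without overlap. SPRY4 had 226, 137 and 195 reads with siNT against 58, 40 and 110 with siMESH1#1 (log2 -0.93, SE 0.42, adjusted p = 0.0890). It moved to -0.17 after GC correction (adjusted p = 0.551). It was called lower by DESeq2 (log2 -0.99, adjusted p = 0.0415), in 1 model of 4 groups (-1.09, adjusted p = 0.00880), with a replicate block (-1.04, adjusted p = 0.0494) and without siMESH1#1 replicate 3 (-1.44, adjusted p = 0.00632). In experiment 2 it had 10, 11 and 9 reads with siNT and 13, 16 and 21 with siMESH1#2. There SPRY4 passed the filter on low counts only through the siMESH1#2 libraries, where it is high. Its change is thus a description with no test (log2 0.66, SE 0.32, or 0.77 after GC correction).

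SPRED1 and SPRED2, which carry neurofibromin to RAS, were the members called lower with siMESH1#2. SPRED1 went from 29.9, 30.2 and 35.4 to 26.0, 26.6 and 26.5 CPM (log2 -0.27, SE 0.07, adjusted p = 0.00404), and SPRED2 from 52.5, 53.7 and 52.8 to 46.7, 44.8 and 47.3 CPM (log2 -0.20, SE 0.05, adjusted p = 0.00511). These are falls to 0.829 and 0.874 of the siNT level, with no overlap of the groups, in the transcripts whose 3′UTRs hold the seed match printed above. What the match contributes was not tested. Both calls were lost in 1 model of all 4 groups (adjusted p = 0.228 and 0.142). With siMESH1#2 that model called 2582 of 14154 genes, where the main fit called 7235 of 13568.

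With siMESH1#1 the same genes lay higher or did not pass the test. SPRED2 rose from 78.4, 69.0 and 78.0 to 129.9, 140.9 and 115.4 CPM (log2 0.78, SE 0.11, adjusted p = 0.00158), and to 0.97 after GC correction (adjusted p = 0.00227). SPRED1 had 52.5, 51.4 and 53.9 CPM with siNT and 65.9, 90.6 and 58.9 CPM with siMESH1#1 (log2 0.45, SE 0.18, adjusted p = 0.0564). It was called higher without siMESH1#1 replicate 2 (log2 0.26, adjusted p = 0.0339) or replicate 3 (log2 0.56, adjusted p = 0.0143). SPRED1 has 38.9% GC, in a class with a median of 1.02, and after GC correction its direction turned, to -0.37 (adjusted p = 0.00413).

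EGR1, the zinc finger factor that serum response factor and ERK switch on, fell with siMESH1#1 and did not pass the test with siMESH1#2. It had 8.96, 15.1 and 7.80 CPM with siNT and 3.61, 3.33 and 4.83 CPM with siMESH1#1 (log2 -1.44, SE 0.32, adjusted p = 0.00818). The siMESH1#1 libraries all lay below the siNT libraries, of which replicate 2 was the highest. EGR1 has 55.4% GC, the median gene of its class changed by -1.64, and after GC correction the value was 0.28 (adjusted p = 0.529). In experiment 2 it had 18.4, 16.7 and 16.1 CPM with siNT and 19.1, 16.3 and 16.4 CPM with siMESH1#2, with overlapping groups (log2 0.015, SE 0.082, adjusted p = 0.896).

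**Figure D2:**
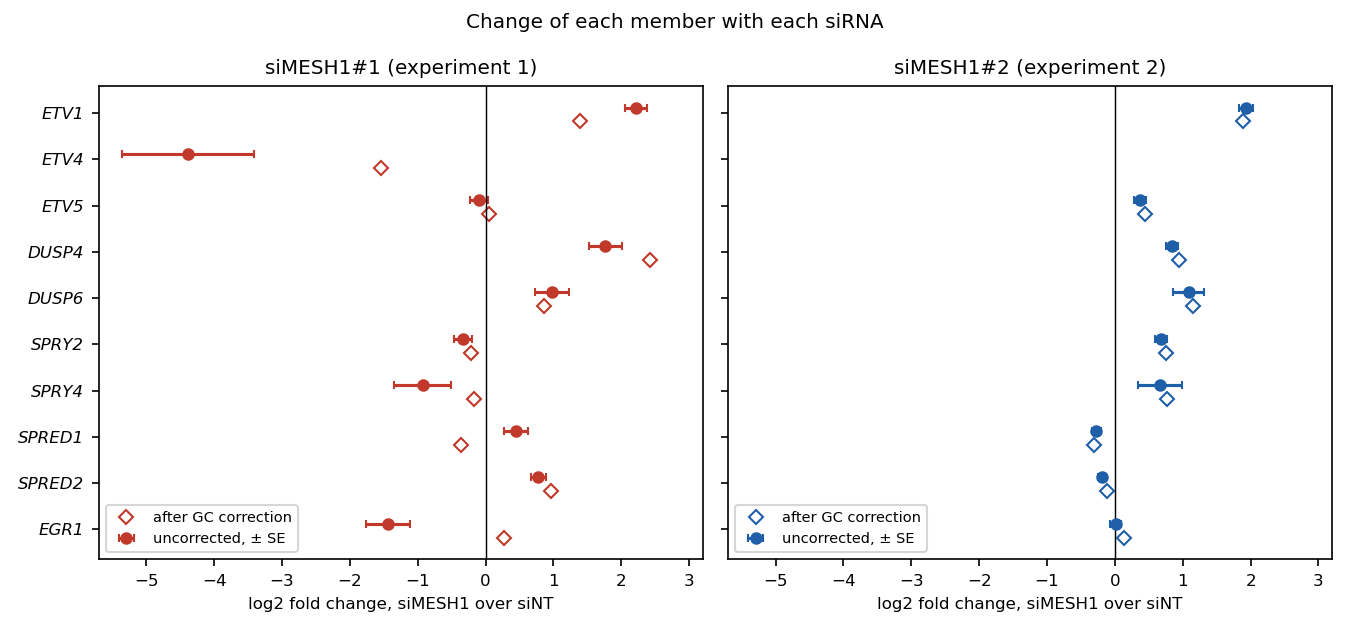
Log2 fold change of each member, siMESH1 over siNT, with siMESH1#1 (left) and siMESH1#2 (right). Filled points are the edgeR values ± SE and open diamonds the values after GC correction: with siMESH1#1 the correction moved EGR1 from -1.44 to 0.28 and ETV4 from -4.39 to -1.54, while DUSP4 and DUSP6 were above 0 in all 4 settings shown; ETV4 was not tested with siMESH1#2.

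Of the 8 members other than ETV1 and ETV4, 3 were called higher with siMESH1#1 (37.5%) and 1 lower (12.5%), where 74.1% of all 13395 genes tested were called, 36.9% higher and 37.2% lower. The share of members called higher is near the background, and that called lower is under it. With GC correction the background was 67.6%, with 40.6% higher and 27.0% lower, 3 members were called higher (DUSP4, DUSP6 and SPRED2) and 1 lower (SPRED1). With siMESH1#2, SPRY4 has no test, and 4 of the others were called higher and 2 lower. There 53.3% of 13568 genes were called, 26.6% higher and 26.7% lower. With GC correction 62.8% were, 39.1% higher and 23.7% lower, and the same 4 members were called higher and 2 lower. The median log2 change of the 8, SPRY4 included, was 0.18 with siMESH1#1 and 0.52 with siMESH1#2, beside -0.047 and 0.0053 over all genes. DUSP4 and DUSP6 were called higher with both siRNAs, and 15.5% of the 12824 genes tested with both were. SPRED2 was called in opposite directions, as were 11.6% of those genes.

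The changes with the siRNAs differed for 7 of these 8 members, with DUSP6 as the exception, in a test of the difference over all 12 libraries that called 69.7% of 14154 genes, 39.7% with a higher and 30.0% with a lower value for siMESH1#2. The change with siMESH1#2 exceeded that with siMESH1#1 by 1.74 for SPRY4 (0.0268), 1.60 for EGR1 (0.00156), 1.17 for SPRY2 (1.05e-04) and 0.61 for ETV5 (0.00447), all on the log2 scale. It was lower by the differences of -0.82 for SPRED2 (adjusted p = 2.00e-04), -0.77 for DUSP4 (0.0127) and -0.57 for SPRED1 (0.0267). For DUSP6 the difference was 0.26 (SE 0.34, adjusted p = 0.512). The median difference over all genes was 0.24. After GC correction, which called 61.2% of genes (27.7% higher and 33.5% lower), 4 members differed: SPRY2 (1.01), ETV5 (0.42), DUSP4 (-1.48) and SPRED2 (-1.06). EGR1 and SPRED1 then changed sign, at -0.16 (adjusted p = 0.741) and 0.14 (adjusted p = 0.148). The difference of SPRED1 was also lost without siNT replicate 1 (adjusted p = 0.0537) or 2 (0.0566) of experiment 1, without siNT replicate 3 of experiment 2 (0.0755), without siMESH1#2 replicate 1 (0.0570), 2 (0.0550) or 3 (0.0534), and that of SPRY4 without siMESH1#1 replicate 1 (0.0528), siNT replicate 1 (0.0592) or 3 (0.0577) of experiment 2, or siMESH1#2 replicate 3 (0.0703).

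**Figure D3:**
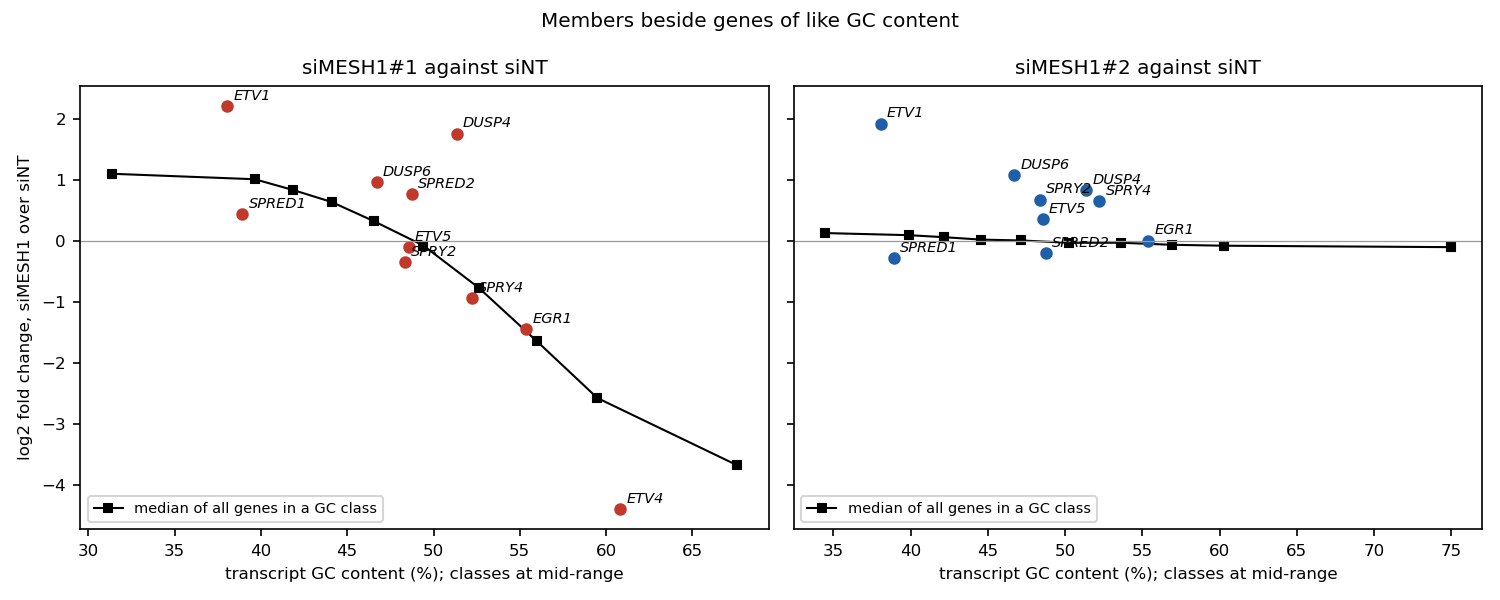
Log2 fold change of the members (circles) against the GC content of their transcripts in percent, with siMESH1#1 (left) and siMESH1#2 (right). Black squares are the median of all genes tested in 10 GC classes: with siMESH1#1, EGR1 (-1.44), SPRY4 (-0.93) and ETV5 (-0.09) lay close to the median of their class, and DUSP4 (1.77) lay far above it.

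The members also differed between the siNT libraries of the experiments, a comparison added after seeing the data. The choice of ETV1 drew on these siNT libraries as baselines, so ETV1 is given here with no test. On a scale common to all 12 libraries, ETV5, DUSP6, SPRY2, SPRY4, SPRED1 and SPRED2 were called lower in the siNT of experiment 2. DUSP4 and EGR1 were called higher. ETV1 and ETV4 were lower too, as a description. Between these controls 86.6% of 13884 genes were called, 43.3% lower and 43.3% higher, and with GC correction 83.4%, 43.1% lower and 40.4% higher. The experiments differ in lane, and reads dropped for low alignment quality were between 6.31% and 7.59% of a library in experiment 1 and 0% in experiment 2, so cells, batch and processing cannot be told apart.

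SPRY4 went from 3.28 to 4.59 CPM over the siNT libraries of experiment 1 to 0.307 to 0.431 in experiment 2, 11.7-fold lower (log2 -3.55, SE 0.25, adjusted p = 1.78e-09). ETV4, with 7 to 14 reads in experiment 2, was 11.5-fold lower by its fitted value (log2 -3.52), given with no test. DUSP6 was lower 6.40-fold (log2 -2.68, adjusted p = 2.06e-08), ETV5 5.90-fold (log2 -2.56, adjusted p = 2.38e-12) and SPRY2 5.08-fold (log2 -2.34, adjusted p = 5.34e-12). The median genes of their GC classes changed by between -0.27 and 1.26, and after GC correction the 5 values were -3.72, -4.99, -2.38, -2.40 and -2.16. SPRED1 (log2 -0.85), ETV1 (-0.83) and SPRED2 (-0.63) were lower by less. After GC correction SPRED1 was at -0.18 (adjusted p = 0.00367), SPRED2 at -0.48 (adjusted p = 1.52e-07) and ETV1 at -0.13. DUSP4 was higher in experiment 2 (log2 0.98, adjusted p = 1.65e-05), as was EGR1 (log2 0.56, adjusted p = 0.00844), which went to 0.038 after GC correction (adjusted p = 0.846).

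**Figure D4:**
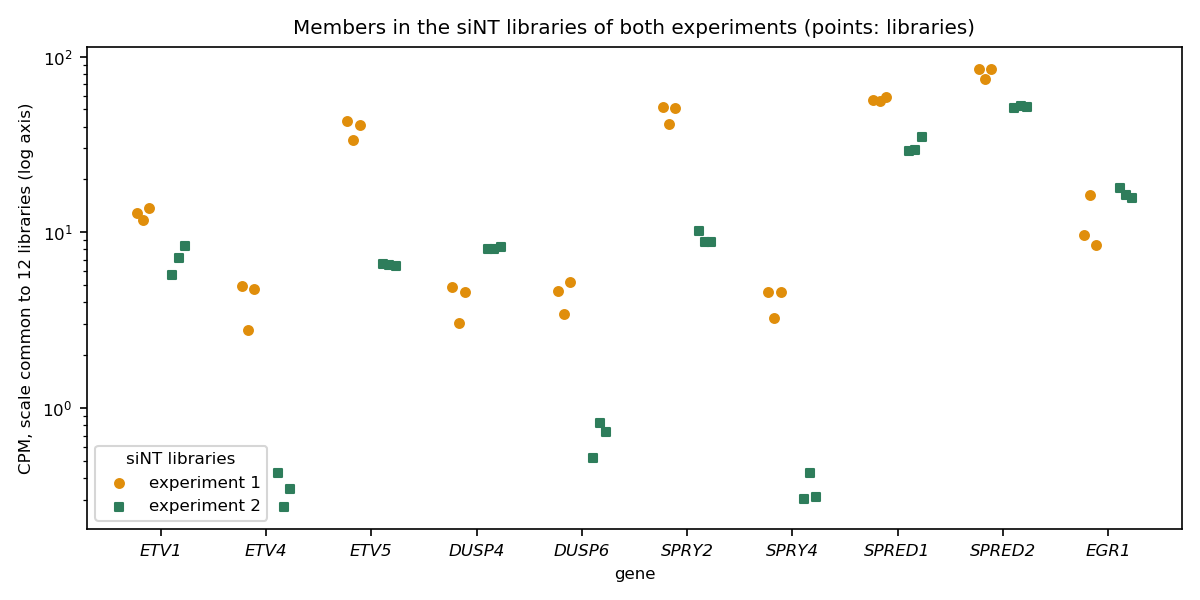
CPM of the members in the siNT libraries of experiment 1 (circles) and experiment 2 (squares), on a log axis and the scale common to 12 libraries. Each point is a library: ETV4, ETV5, DUSP6, SPRY2 and SPRY4 were 5.08-fold to 11.7-fold lower in experiment 2, and DUSP4 was higher.

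Over the 4 groups on this common scale, ETV1 stood lowest in the siNT of experiment 2 (5.74 to 8.38 CPM), then in the siNT of experiment 1 (11.7 to 13.8), siMESH1#2 (25.4 to 28.2) and siMESH1#1 (46.0 to 61.4), and no neighbours overlapped. DUSP4 rose in the order siNT of experiment 1, siNT of experiment 2, siMESH1#1 and siMESH1#2, with the last pair overlapping (11.3 to 13.9 and 13.1 to 16.02 CPM). For DUSP6, SPRY2, SPRY4, ETV5, SPRED1 and SPRED2 both groups of experiment 2 lay below both groups of experiment 1. The rise of DUSP6 with siMESH1#2 (1.24 to 1.67 CPM) thus ended below the siNT of experiment 1 (3.45 to 5.25 CPM). For EGR1 the siMESH1#1 libraries (3.22 to 4.72 CPM) were lowest and the other groups overlapped in a chain. Per kilobase of the longest annotated transcript, the order in the siNT of experiment 1 was SPRED2 (19.9 CPM per kb), SPRY2 (17.8), ETV5 (9.54), SPRED1 (7.33), EGR1 (3.67), ETV1 (1.89), ETV4 (1.72), DUSP6 (1.01), SPRY4 (0.840) and DUSP4 (0.754). SPRED2 and SPRY2 overlapped there, as did each neighbouring pair from ETV1 down to DUSP4. In the siNT of experiment 2, SPRED2 was again highest (12.6 CPM per kb) and SPRY4 lowest (0.0710).

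Other genes of the pathway were read from lists written from general knowledge, with earlier results of these data known. Their counts are set beside the shares of all genes called. These were 36.9% higher and 37.2% lower with siMESH1#1 (40.6% and 27.0% after GC correction). With siMESH1#2 they were 26.6% and 26.7% (39.1% and 23.7% after GC correction). Among 24 ligands and receptors tested, 9 were called higher (37.5%) and 8 lower (33.3%) with siMESH1#1, both near the background, and 10 and 4 after GC correction. With siMESH1#2, 5 were called higher (20.8%) and 7 lower (29.2%), where 26.6% and 26.7% of all genes were. After GC correction these counts were 9 and 6. EGFR fell with siMESH1#1 from 213 ± 10.3 to 78.3 ± 3.14 CPM (log2 -1.44, adjusted p = 2.14e-04), with -1.46 after GC correction, and FGFR2 rose from 0.634 ± 0.128 to 5.53 ± 0.389 CPM (log2 3.12, adjusted p = 2.95e-04). With siMESH1#2, PDGFD, a ligand of the PDGF receptors, fell (log2 -1.65, adjusted p = 7.65e-10) and TGFA, a ligand of EGFR, rose (log2 0.66, adjusted p = 5.23e-09).

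In the cascade from RAS to ERK and its regulators, 15 of 32 genes were called higher (46.9%, beside 36.9% of all genes) and 8 lower (25%, beside 37.2%) with siMESH1#1, and 16 and 9 after GC correction. With siMESH1#2, 16 were called higher (50%, beside 26.6%) and 7 lower (21.9%, beside 26.7%), and 18 and 6 after GC correction. The RAS exchange factors SOS1 and SOS2 rose with siMESH1#1 (log2 2.01 and 2.34, or 1.17 and 1.58 after GC correction). NRAS fell with siMESH1#2 (log2 -0.67, adjusted p = 2.76e-08), and so did the scaffold KSR1 (log2 -0.61, adjusted p = 3.47e-07).

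Of 16 other feedback inhibitors tested, 10 were called higher (62.5%) and 4 lower (25%) with siMESH1#2, where 26.6% and 26.7% of all genes were. Their median log2 change was 0.37. After GC correction the counts were 10 and 4 and the median 0.45. DUSP16, a phosphatase of JNK and p38, rose (log2 0.56, adjusted p = 9.22e-08) and DUSP3 fell (log2 -0.48, adjusted p = 6.77e-08). With siMESH1#1, 6 were called higher (37.5%, beside 36.9%) and 8 lower (50%, beside 37.2%) with a median of -0.93, which became 7, 4 and 0.36 after GC correction. The 8 include DUSP9 and DUSP2, which passed the filter on low counts only through siNT, and the 4 include DUSP9. Both genes are descriptions with no test, and so is the 50%. DUSP9 had no read in the siMESH1#1 libraries and was at least 51.2-fold lower than siNT (against 3 reads over the group). LZTR1, an adaptor for the degradation of RAS proteins, fell (log2 -3.40, adjusted p = 5.98e-04), but not after GC correction (-0.14, adjusted p = 0.637).

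Among immediate early genes and targets of serum response factor, 8 of 26 were called higher (30.8%) and 6 lower (23.1%) with siMESH1#1, under the 36.9% and 37.2% of all genes. After GC correction these counts became 16 and 2, beside 40.6% and 27.0% of all genes. With siMESH1#2, 7 of 27 were called higher (25.9%, beside 26.6%) and 8 lower (29.6%, beside 26.7%). After GC correction these became 13 and 7, beside 39.1% and 23.7% of all genes. BTG2, an antiproliferative gene, rose with both siRNAs, from 16.5 ± 2.14 to 105 ± 19.7 CPM with siMESH1#1 (log2 2.67, adjusted p = 2.78e-04) and from 43.8 ± 2.44 to 148 ± 3.72 CPM with siMESH1#2 (log2 1.76, adjusted p = 1.99e-13). CTGF rose with siMESH1#1 (log2 1.60, adjusted p = 5.98e-04), and CYR61 fell with siMESH1#2 (log2 -0.61, adjusted p = 1.62e-09).

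Other transcripts that ERK activity raises in many cells included 12 of 18 called lower with siMESH1#1 (66.7%, beside 37.2% of all genes) and 4 called higher (22.2%, beside 36.9%), with a median of -1.65. After GC correction 6 were lower and 4 higher, with a median of -0.21, where 27.0% and 40.6% of all genes were. CCND1, which encodes cyclin D1, fell with siMESH1#1 from 441 ± 38.8 to 69.0 ± 7.48 CPM (log2 -2.67, adjusted p = 1.78e-04), or -2.19 after GC correction. SH2B3 fell as well (log2 -1.54, adjusted p = 3.37e-04), which became 0.16 (adjusted p = 0.667) after GC correction. With siMESH1#2, 6 were called higher (33.3%, beside 26.6%) and 5 lower (27.8%, beside 26.7%). The higher ones included TFPI2 (log2 1.29, adjusted p = 1.74e-11) and the chromatin protein gene HMGA2 (log2 1.22, adjusted p = 7.40e-11). After GC correction 11 were higher and 4 lower with siMESH1#2, beside 39.1% and 23.7% of all genes.

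**Figure D5:**
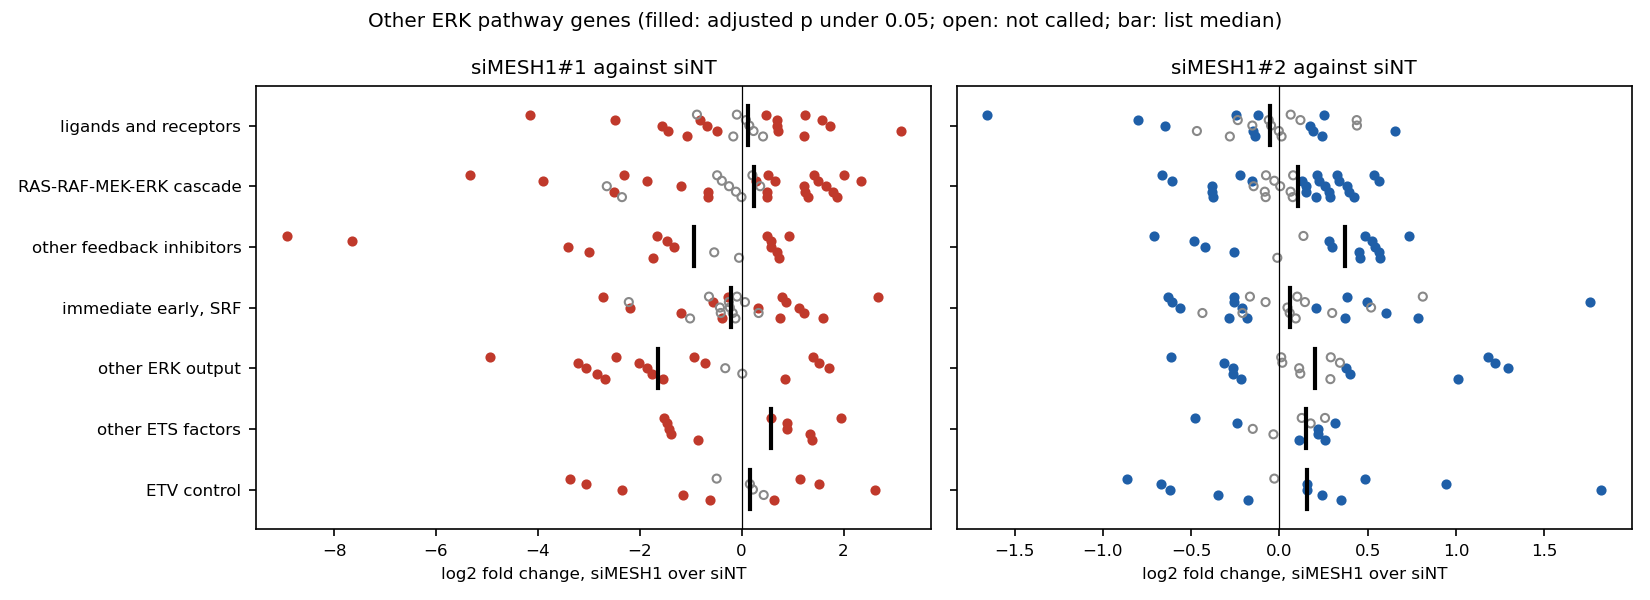
Log2 fold change, siMESH1 over siNT, of the other ERK pathway genes by list, with siMESH1#1 (left) and siMESH1#2 (right, with a narrower axis). Filled points are genes at an edgeR adjusted p under 0.05, open points are not called and bars are list medians: the other feedback inhibitors had a median of -0.93 with siMESH1#1, where DUSP9 and DUSP2 had no read and their points far to the left depend on the prior count, and 0.37 with siMESH1#2.

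Of other ETS factors, 6 of 11 were called higher (54.5%, beside 36.9% of all genes) and 5 lower (45.5%, beside 37.2%) with siMESH1#1, and 5 and 3 after GC correction. With siMESH1#2, 5 of 12 were called higher (41.7%, beside 26.6%) and 2 lower (16.7%, beside 26.7%), and 7 and 2 after GC correction. ETV6, a repressor, rose with siMESH1#1 (log2 1.38, adjusted p = 2.14e-04, 1.34 after GC correction), as did ELF2 (log2 1.34, adjusted p = 5.97e-04, 0.56 after GC correction). ELF3 (log2 -0.48, adjusted p = 2.23e-07) and ELF4 (log2 -0.24, adjusted p = 8.37e-04) fell with siMESH1#2.

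Of 13 genes that control the ETV factors, 4 were called higher (30.8%, beside 36.9% of all genes) and 5 lower (38.5%, beside 37.2%) with siMESH1#1. After GC correction 6 were higher and 2 lower, beside 40.6% and 27.0%. With siMESH1#2, 7 were called higher (53.8%, beside 26.6%) and 5 lower (38.5%, beside 26.7%), and 8 and 4 after GC correction. TRIB1, a pseudokinase that brings substrates to COP1, rose from 47.2 ± 1.06 to 288 ± 26.2 CPM with siMESH1#1 (log2 2.61, adjusted p = 1.68e-04) and from 49.9 ± 2.77 to 96.2 ± 3.36 CPM with siMESH1#2 (log2 0.95, adjusted p = 3.60e-10). Of its relatives, TRIB2 was called higher with siMESH1#2 (log2 1.82, adjusted p = 1.28e-07) and TRIB3 lower with both siRNAs (log2 -2.35 and -0.62). After GC correction with siMESH1#1, TRIB3 was at 0.45 (adjusted p = 0.0745). RFWD2, which encodes COP1, was called higher with siMESH1#1 (log2 1.14, adjusted p = 0.00140) and lower with siMESH1#2 (log2 -0.86, adjusted p = 4.60e-08). RFWD2, TRIB2 and TRIB3 were chosen after their values were seen. ATXN1, a partner of CIC, rose with siMESH1#1 (log2 1.52, adjusted p = 4.25e-04), and its relative ATXN1L fell with siMESH1#2 (log2 -0.67, adjusted p = 1.41e-09). CIC itself, chosen after its values were seen because of the octamer in ETV1, was called lower with siMESH1#1 (log2 -3.36, adjusted p = 0.00297) and siMESH1#2 (log2 -0.18, adjusted p = 0.0105), but it has 65.8% GC and was called higher after GC correction with siMESH1#1 (log2 0.57, adjusted p = 0.0371).

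The 5 genes whose pattern was most like that of ETV1 were DESI2, DENND5B, CREBRF, PLSCR4 and SNAI2. Likeness was the Euclidean distance over the 12 libraries between log2 CPM values centred on the siNT mean of their own experiment, among 11549 genes, and it lay between 0.766 for DESI2 and 1.10 for SNAI2. DESI2 had 35.1 to 36.0 CPM with siNT and 169 to 267 with siMESH1#1, and 23.8 to 27.7 and 88.2 to 88.6 in experiment 2. SNAI2, which encodes the transcription factor SLUG, had 10.0 to 11.6 CPM with siNT and 39.9 to 47.2 with siMESH1#1, and 9.08 to 10.5 and 25.5 to 26.5 in experiment 2. Their transcripts have between 35.8% and 43.0% GC, beside 38.1% for ETV1. In bulk RNA, fewer cells that express a gene and less of its RNA in each cell cannot be told apart, for these genes and for the members.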

How the data were processed

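RNA was sequenced from 12 libraries of RCC4 cells (TruSeq Stranded mRNA). The authors aligned reads to hg19 with HISAT2, counted reads per gene with HTSeq and deposited raw counts for each library (versions not given in the sources used here). Their DESeq2 tables of fold changes and p-values were not used. The members and the pathway lists were chosen with earlier results of these data known. HTSeq's summary rows were dropped, of which reads in no gene were 10.02% to 20.8% of a library. Groups came from the sample labels, which call the replicates biological. Each experiment was fitted alone with edgeR 4.0.16 (R 4.3.3): filterByExpr, TMM, and the quasi-likelihood F test with Benjamini-Hochberg adjustment over all genes tested, called at an adjusted p under 0.05. SE is the size of the log2 fold change over the root of F. The difference between siRNAs was an interaction over all 12 libraries. The siNT comparison was a fit of 6 libraries. GC correction used, as an offset in each library, a lowess curve (span 0.3) of log CPM on transcript GC, known for 96.4% and 96.5% of genes tested in experiments 1 and 2. In simulated data, 18 of 200 genes changed 2-fold were recovered in experiment 1 (13229 genes) and 190 of 200 in experiment 2 (13504 genes). Every gene was drawn at the common dispersion of its experiment with no GC trend, so these shares are not the power in the real data. An exact permutation test of 3 against 3 cannot go below p = 0.1 and was not used. Symbols were matched to GENCODE 29 and RefSeq for GC content and sequences (21257 by name and 1080 by an older or newer symbol, of 23710). The genes named were the members, HDDC3, the 2 tested genes of each list with the smallest edgeR p in each comparison, and the 5 genes nearest to ETV1 among those with a mean of at least 1 CPM in each experiment. CIC, RFWD2, TRIB2, TRIB3 and DUSP2 were named outside this rule. Same-numbered replicates correlated at -0.054, 0.238 and 0.134 in experiment 1 and at -0.068, 0.041 and -0.079 in experiment 2, so the numbers were not taken as pairs. Alternatives were DESeq2 1.42.0, library size alone, other filters and thresholds, a replicate block, lane, GC correction, 1 model of all 4 groups, and leaving out each library.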

Additional observations from a re-analysis of the deposited data

Results flagged for a closer look

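The change with siMESH1#2 differed from that with siMESH1#1 for 7 of the 8 members other than ETV1 and ETV4, by the edgeR test of the difference itself, which called 69.7% of all genes. The fitted log2 difference, siMESH1#2 minus siMESH1#1, was 3.62 for ETV4, which entered through the siNT of experiment 1 alone and had at most 17 reads in any other library, so this is a description. It was 1.74 for SPRY4, 1.60 for EGR1, 1.17 for SPRY2 and 0.61 for ETV5. It was -0.82 for SPRED2, -0.77 for DUSP4 and -0.57 for SPRED1. The siRNA and the experiment cannot be told apart in these differences.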

How the results depend on the processing

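Of 569 values for single members, ETV4 and SPRY4 included, 515 kept their direction and their side of the threshold. Of the others, 29 lost a call, 13 gained one and 12 turned direction. GC correction, without and with the replicate block, gave ETV1 with siMESH1#1 1.39 and 1.39, ETV5 0.054 and 0.058, SPRED1 -0.37 and -0.37 and EGR1 0.28 and 0.31, and differences between the siRNAs of 0.14 and 0.14 for SPRED1 and -0.16 and -0.22 for EGR1. ETV4 is left out of the members called here and below, except where it is said to be counted. Under both corrections SPRED1 alone was called lower with siMESH1#1, where EGR1 was otherwise. Pathway genes lower with siMESH1#1 were 30 and 25, where 52 were otherwise. The 52 include DUSP9 and DUSP2, which had no read with siMESH1#1. Over all 13395 genes 3619 and 3175 were called lower, where 4981 were otherwise. Under both corrections 4 and 4 members differed between siRNAs, beside 8666 and 7978 of 14154 genes. ETV5 (adjusted p = 0.0257) was in the first 4 and SPRY4 (0.0416) in its place in the second, where ETV5 was at 0.0612. Library size alone gave ETV1 1.95. Members lower with siMESH1#1, with ETV4 counted although it has no test, were 4 by DESeq2 and 5 in 1 model of 4 groups. Besides ETV4 these were SPRY2, SPRY4 and EGR1 in both settings, and ETV5 in the model alone. That model called 0 members lower with siMESH1#2 and 22 pathway genes higher and 11 lower there (56 and 38 otherwise). At an adjusted p under 0.01, 4 members differed between siRNAs, beside 7856 of 14154 genes. DESeq2 and GC correction each called 1 member higher in the siNT of experiment 2, beside 6278 of 16513 and 5607 of 13884 genes. The cause of these shifts was not tested.

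Leaving out each library gave 2 to 4 members higher with siMESH1#1. EGR1 was lower in each fit, SPRY2 without siNT replicate 2 and SPRY4 without siMESH1#1 replicate 3. Over all genes 4205 to 5256 were higher and 3890 to 5841 lower, of 13520 to 13642. With siMESH1#2, 4 members were higher and 2 lower, beside 3072 to 4149 and 3192 to 4223 of 13667 to 13733 genes. ETV5, DUSP4, SPRY2, SPRED2 and EGR1 differed between siRNAs in each fit, beside 9103 to 11113 of 14297 to 14394 genes. Between controls 2 members were higher, beside 5930 to 6135 of 13952 to 14158 genes. ETV1 ranged from 2.11 to 2.30 and from 1.79 to 2.08, HDDC3 from -6.66 to -4.93 and from -3.44 to -3.15, and EGR1 with siMESH1#2 from -0.062 to 0.075 (-0.03 without siNT replicate 3). Beside the counts over all genes just given, pathway genes ranged from 44 to 52 higher and 42 to 61 lower with siMESH1#1. With siMESH1#2 they ranged from 48 to 60 and 31 to 42. The replicate block, though the numbers do not pair the samples, gave 3 members higher with siMESH1#1 and EGR1 and SPRY4 lower. It gave 4 higher and 2 lower with siMESH1#2. ETV5, DUSP4, SPRY2, SPRY4, SPRED2 and EGR1 differed between siRNAs. ETV1 was at 2.21 and 1.93, HDDC3 at -5.81 and -3.25, and pathway genes at 44 and 52, and 54 and 36. Over all genes 4479 of 13395 were higher and 4794 lower with siMESH1#1. With siMESH1#2, 3461 of 13568 were higher and 3511 lower, and 9385 of 14154 differed. HDDC3 had no value with siMESH1#1 at 10 counts or more in every library.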
